A study of Mus musculus with 50 samples.

Results

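The genes described here encode subunits of chromatin remodelling complexes and enzymes or readers that act on histones. They were taken by name from the TPM table of single iHECs: every row whose symbol begins with Smarc, with Arid, Chd, Hdac, Brd or Kdm followed by a family number was kept, apart from Kdm5d on the Y chromosome. This gave 63 of the 11879 rows (0.530%), comprising 14 Smarc, 9 Arid, 9 Chd, 10 Hdac, 7 Brd and 14 Kdm genes on 19 chromosomes, 5 of them on the X chromosome. TPM is a transcript abundance scaled by length and to a common total, so levels can be set side by side between genes. Values above TPM 1 were taken as expression.

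The cells were 50 mouse hemogenic endothelial cells induced in culture (iHECs), the endothelial cells from which blood cells emerge. They came from C57BL/6 embryonic stem cells with a doxycycline-inducible Runx1 cassette at the Rosa26 locus (iRunx1-ESC), were given doxycycline during differentiation, and were sorted as CD31+CD41lowCD45-c-kit+CD201high. All 50 cells form 1 group from 1 engineered line, with no uninduced cells and no named culture or animal, so there was no replicate, and no test between conditions was made. Intervals given below are exact Clopper-Pearson 95% intervals over cells that cover counting error only, and each correlation over cells is a description of these cells.

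The label of the cells was checked against marker genes. At least 90% of cells were above TPM 1 for each of 6 endothelial markers (Pecam1, Cdh5, Esam, Tek, Kdr and Emcn). Of 5 blood markers, Ptprc (CD45) and Spn were listed at 0 in every cell, Cd52 was above TPM 1 in 3 cells and Coro1a in 21, while Laptm5 was above TPM 1 in 48. By the first number of the cell titles, described below, the 21 cells with Coro1a were 2 with number 1, 13 with number 2, 1 with number 3 and 5 with number 4. Col1a2 and Pdgfra, markers of mesenchymal cells, were each above TPM 1 in 2 cells and Pdgfrb in 0, and the erythroid genes Hbb-bh1 and Hba-x were above TPM 1 in 4 and 2 cells. Sequencing depth cannot be recovered from TPM, and a value of 0 is therefore given only as listed at 0. The number of genes above TPM 1 ran from 2400 in cell 4-6 to 8615, with a median of 6223.5, and 7 cells had fewer than 5000. Titles carry a number pair, and the first number, whose meaning the labels do not give, takes 4 values over groups of 11, 14, 13 and 12 cells.

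Chromatin remodellers use ATP to slide, evict or exchange nucleosomes. SWI/SNF (BAF), ISWI, CHD and INO80 type machines are built around different ATPases, and the BAF complex is assembled from interchangeable paralogs whose choice differs between cell types. Histone deacetylases (HDACs) remove acetyl groups and act mostly in corepressor complexes, bromodomain proteins bind acetylated histones, and most KDM genes encode histone demethylases. In blood development these activities are known to work with lineage transcription factors, including RUNX1, in closing endothelial genes and opening hematopoietic genes.

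Upstream sequences are shown for the pairs in which the same gene was the higher in every cell with either above TPM 1. They are the 250 bases before the RefSeq start site (assembly GRCm38.p6, 5′ to 3′ on the strand of the gene) of the KDM1 demethylases and of the ISWI ATPases, with CG dinucleotides in capitals. The windows are chr4:136602724-136602973 on the minus strand for Kdm1a, chr13:47043249-47043498 on the plus strand for Kdm1b, chr8:80739460-80739709 on the minus strand for Smarca5 and chrX:47892614-47892863 on the minus strand for Smarca1.
Kdm1a: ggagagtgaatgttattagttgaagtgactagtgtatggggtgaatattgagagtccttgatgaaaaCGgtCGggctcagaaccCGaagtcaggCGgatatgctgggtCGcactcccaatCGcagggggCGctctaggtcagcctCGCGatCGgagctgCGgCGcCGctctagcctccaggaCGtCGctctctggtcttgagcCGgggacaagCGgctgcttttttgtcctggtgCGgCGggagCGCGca
Kdm1b: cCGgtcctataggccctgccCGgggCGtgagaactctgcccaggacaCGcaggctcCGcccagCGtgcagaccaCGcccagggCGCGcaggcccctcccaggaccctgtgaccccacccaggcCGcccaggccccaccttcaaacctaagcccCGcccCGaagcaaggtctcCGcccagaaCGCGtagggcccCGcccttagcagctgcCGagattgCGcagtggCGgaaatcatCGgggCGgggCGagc
Smarca5: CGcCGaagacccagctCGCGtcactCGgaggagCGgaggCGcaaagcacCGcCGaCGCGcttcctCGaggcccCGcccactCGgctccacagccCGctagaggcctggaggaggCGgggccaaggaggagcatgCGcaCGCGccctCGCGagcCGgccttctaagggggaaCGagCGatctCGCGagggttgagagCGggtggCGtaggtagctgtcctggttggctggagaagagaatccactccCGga
Smarca1: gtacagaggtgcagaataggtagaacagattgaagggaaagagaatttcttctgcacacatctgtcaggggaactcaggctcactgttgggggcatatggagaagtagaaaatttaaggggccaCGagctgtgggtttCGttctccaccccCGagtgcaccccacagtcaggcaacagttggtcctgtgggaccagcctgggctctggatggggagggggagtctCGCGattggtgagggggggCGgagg
Kdm1a held 21 CG dinucleotides and was above TPM 1 in 46 cells, while Kdm1b held 22 and was above TPM 1 in 9. Smarca5 held 29 and was above TPM 1 in 47 cells, while Smarca1 held 6 and was above TPM 1 in 2. The median over the 32851 windows of the same length in the RefSeq table was 6, with quartiles of 2 and 16. The KDM1 windows were alike in their number of CG dinucleotides, and the ISWI windows were not. Only 44 of the 63 genes (69.8%) had an entry in the table, and no comparison over the whole list was made.

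The first question was how widely the genes were expressed. Of the 3150 pairs of a gene and a cell, 2104 were above TPM 1 (66.8%, against 51.9% over all rows), 796 were listed at 0 and 250 lay in between. The median share of cells was 72%, with quartiles of 52% and 92%, compared with a median of 52% over all rows. A total of 49 genes passed TPM 1 in at least 50% of cells, which is 77.8% of the 63, against 53.2% of all rows. At TPM above 10 the difference was smaller, with 29 genes (46%) and 42% of rows. Hdac1, Smarce1 and Kdm6b exceeded TPM 1 in every cell, as did 7.15% of all rows, and Hdac9 exceeded it in no cell.

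Their levels were moderate. The median TPM of a gene was 9.06 at the midpoint of the list and 2.1 at the midpoint of all rows, but where a gene was above TPM 1 the corresponding values were 19.9 and 30.6 TPM. All genes together carried between 265.9 and 2898 TPM in a cell, with a median of 1957. The longest annotated transcripts had a median of 5174 nucleotides over 62 of the genes and 3144 over 10838 rows, and across the 62 genes transcript length and median TPM had a rho of −0.15.

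**Figure D1:**
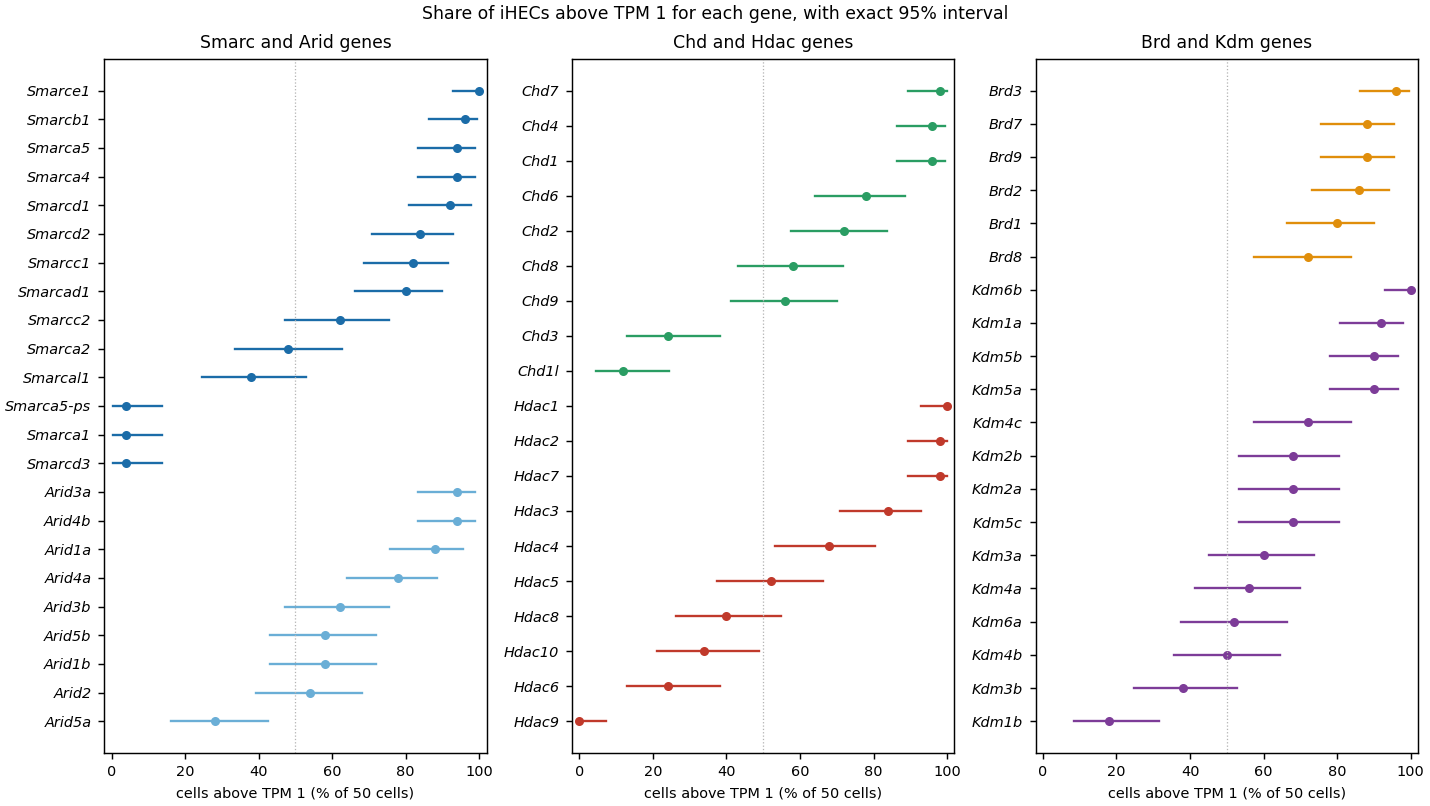
Percent of the 50 cells with TPM above 1 (x axis) for 62 genes (y axis), grouped by family; points give the share and lines the exact 95% interval. Shares run from 0% for Hdac9 to 100% for Hdac1, Smarce1 and Kdm6b.

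A median cell had 43 of the 63 genes above TPM 1. The lowest was cell 4-6 with 8 genes, which was also the cell with the fewest genes of any kind, and the highest was cell 3-8 with 57. The number of these genes in a cell and the number of all genes above TPM 1 had a rho of 0.81 over 50 cells, a relation between counts from the same libraries. The medians for the 4 first title numbers were 44, 44, 43 and 41 genes. For single genes the share of cells differed between first title numbers by a median of 16.9 percentage points, against 18.2 over all rows, and by more than 30 points for 9 genes (14.3%), against 21% of rows. Brd1, a scaffold of histone acetyltransferases, ranged from 45.5% of cells with number 1 to 100% with number 2. Arid5a, an RNA-binding ARID protein, ranged from 45.5% with number 1 to 0% with number 4, and Smarcc2 from 81.8% to 41.7% with the same numbers.

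By family, the median share of cells was highest for the Brd genes at 88%, followed by Smarc at 81%, Chd at 72%, Kdm at 68%, Arid at 62% and Hdac at 60%. All 7 Brd genes, 12 of 14 Kdm, 8 of 9 Arid, 7 of 9 Chd, 9 of 14 Smarc and 6 of 10 Hdac genes reached this share of at least 50%, beside 53.2% of all rows, so that the shares for Hdac (60%) and Smarc (64.3%) were the nearest to that of all rows. Summed TPM followed another order. The Hdac genes had the highest median sum, 652 TPM (40.7 to 1148 TPM), ahead of Smarc at 546 TPM, while the Chd genes had 86.3 TPM. The Hdac family held both the gene with the highest median TPM, Hdac1, and the gene listed at 0 throughout, Hdac9.

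The BAF complex was examined by role, starting with its ATPases. Smarca4 (BRG1; chromosome 9, 21616169 to 21704230), the BAF ATPase required for early blood formation, ran from 0.12 TPM through a median of 38.1 TPM to 401 TPM in cell 4-14, and was above TPM 1 in 47 cells. Smarca2 (BRM), the alternative ATPase, had a median of 0.44 TPM and a highest value of 78.9 TPM, and was above TPM 1 in 24 cells. The ranges of the ATPases overlapped across cells, but within a cell Smarca4 was the higher in 44 of the 47 cells with either (93.6%, 82.5% to 98.7%). Both were above TPM 1 in 24 cells, and Smarca2 in 0 of the 3 cells without Smarca4 above it.

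The other BAF subunits had more mixed paralogs by count. Of the scaffold subunits that hold the core together, Smarcc1 (BAF155) had a median of 19.3 TPM and was above TPM 1 in 41 cells, and Smarcc2 (BAF170) had a median of 4.68 TPM and was above TPM 1 in 31. Smarcc1 was the higher in 35 of 45 cells (77.8%, 62.9% to 88.8%), and 27 cells had both. Among the D subunits, which link the complex to transcription factors, Smarcd2 (BAF60B) had a median of 45 TPM and was highest in 35 of 49 cells (71.4%, 56.7% to 83.4%), and Smarcd1 (BAF60A), with a median of 23.9 TPM, in the other 14. Smarcd3 (BAF60C), known from heart and muscle, was listed at 0 in 48 cells and reached 15.8 TPM in the others. Its exons share 2466 bases with those of Chpf2 on the opposite strand. Exons of Arid4b, Brd2, Hdac7, Kdm1b, Kdm2b, Kdm5a, Smarcc1 and Smarcd1 also overlap a gene on the opposite strand, and whether counting used strand was not stated, so reads of such pairs could not be told apart.

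The subunits without a paralog were higher. Smarce1 (BAF57), a DNA-binding subunit, ran from 15.6 TPM through a median of 138 TPM to 231 TPM, and its SD of 0.82 on the log2(TPM + 1) scale was less than the median SD of 1.76 over all 63 genes. Smarcb1 (SNF5), a core subunit that contacts the nucleosome, had a median of 185 TPM, a highest value of 522 TPM and an SD of 1.9, and was above TPM 1 in 48 cells. Both medians were above those of either ATPase.

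ARID subunits define the form of the complex, since Arid1a and Arid1b belong to canonical BAF and Arid2 to PBAF. Arid1a was above TPM 1 in 44 cells at a median of 9.06 TPM, Arid1b in 29 cells at 1.21 TPM and Arid2 in 27 cells at 2.94 TPM. Arid1a exceeded Arid1b in 40 of 46 cells (87.0%, 73.7% to 95.1%). Brd9, a subunit of the non-canonical form, and Brd7, a subunit of PBAF, were each above TPM 1 in 44 cells, at medians of 10.1 and 34.9 TPM. Brd9 reached 532 TPM in cell 4-14, the cell in which Smarca4 was also at its highest. That cell had 4915 genes above TPM 1 and is among the cells under 5000.

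At least 1 gene for each of 6 BAF roles (ATPase, scaffold, D subunit, Smarcb1, Smarce1 and ARID subunit) was above TPM 1 in 41 cells (82%, 68.6% to 91.4%). A further 8 cells had 5 roles, and cell 4-6 had 2. The 41 cells had a median of 6421 genes above TPM 1 and the other 9 a median of 5137. The groups overlapped, since cells with all roles went down to 4402 genes and the others up to 5918, and 4 of the 7 cells under 5000 genes had all roles. The role of depth was not tested. At TPM above 10 the share with all roles was 38%.

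**Figure D2:**
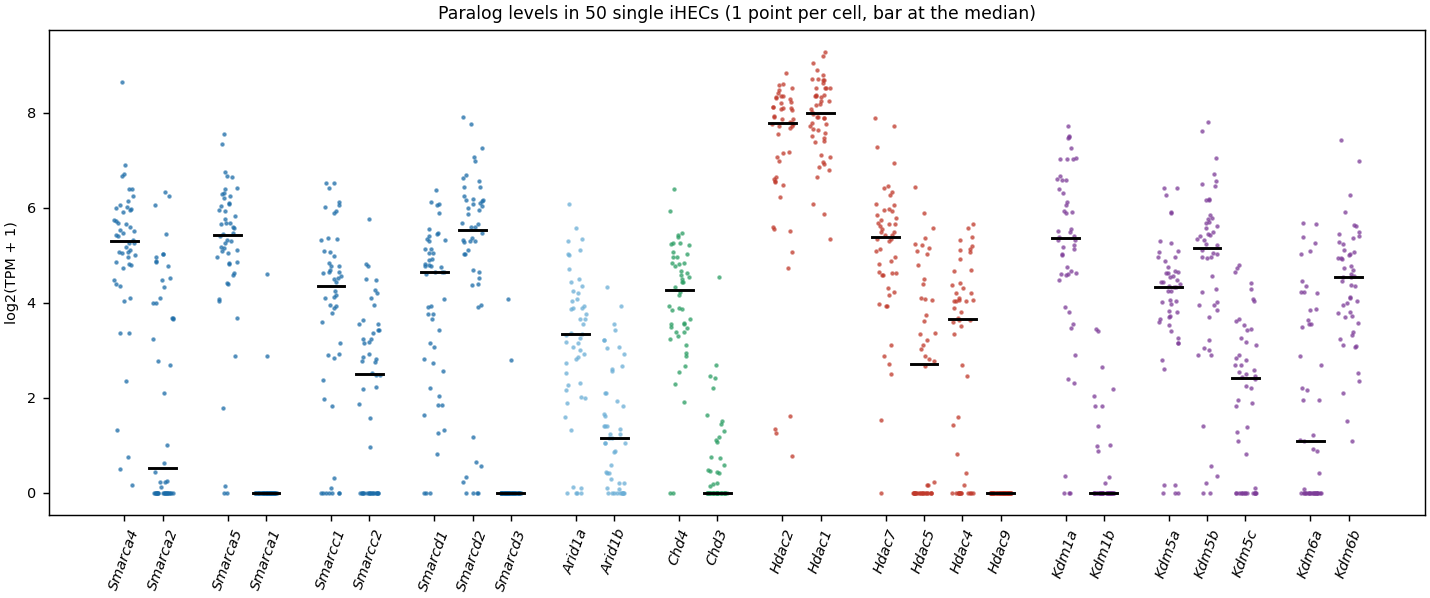
Level on the log2(TPM + 1) scale (y axis) of selected paralogs (x axis), with 1 point per cell for 50 cells and a bar at the median. Smarca4, Smarca5, Chd4 and Kdm1a lie above their paralogs in most cells, whereas Hdac1 and Hdac2 overlap.

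The other remodelling ATPases showed a single leading gene in each pair. Smarca5 (SNF2H), the ISWI ATPase, had a median of 41.9 TPM and a highest value of 186 TPM, and was the higher of the ISWI pair in all 47 cells with either (100%, 92.5% to 100%). Smarca1 (SNF2L) was listed at 0 in 48 cells. The pseudogene row Smarca5-ps reached at most 7.74 TPM, was above TPM 1 in 2 cells, and its rho with Smarca5 was 0.68. Reads shared between the gene and its copy could not be told apart. Chd4 is the main ATPase of the NuRD complex, which couples remodelling to deacetylation. It was the higher of its pair in 47 of 48 cells (97.9%, 88.9% to 99.9%) at a median of 18.3 TPM. Chd3 was above TPM 1 in 12 cells, all with Chd4 above it, but only 2 cells were without Chd4.

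Among the other CHD genes, Chd7, mutated in CHARGE syndrome, was above TPM 1 in 49 cells at a median of 25 TPM and was highest of Chd6 to Chd9 in 40 of 50 cells (80%). Chd1, which binds the active promoter mark on histone H3, was above TPM 1 in 48 cells at a median of 15.9 TPM and exceeded Chd2 in 39 of 50 cells (78%). Chd6, Chd2, Chd8 and Chd9 were above TPM 1 in 39, 36, 29 and 28 cells. Chd1l, a remodeller of the DNA damage response, was above TPM 1 in 6 cells. The annealing helicase Smarcal1 and the remodeller Smarcad1, which act at replication forks and in DNA repair, were above TPM 1 in 19 and 40 cells.

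The ARID genes outside BAF followed. Arid3a, a DNA-binding factor of B cells and blood stem cells, had a median of 34.1 TPM and was above TPM 1 in 47 cells. Its paralog Arid3b was above TPM 1 in 31 cells at a median of 11.0 TPM, with an SD of 2.55 on the log2(TPM + 1) scale. Every cell with Arid3b above TPM 1 also had Arid3a above it, but only 3 cells were without Arid3a. Arid3a was the higher in 33 of 47 cells (70.2%). Of the SIN3-associated ARID4 pair, Arid4a had a median of 9.29 TPM and was above TPM 1 in 39 cells, and Arid4b had a median of 24 TPM and was the higher in 36 of 49 cells. Arid5a and Arid5b were above TPM 1 in 14 and 29 cells, and 16 cells had neither.

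Hdac1 and Hdac2, class I deacetylases, had the highest median TPM of the list. Hdac1 ran from 39.5 TPM through a median of 254 TPM to 617 TPM, and Hdac2 from 0.71 TPM through a median of 219 TPM to 455 TPM. They share the NuRD, SIN3 and CoREST complexes, and both were above TPM 1 in 49 of 50 cells. Hdac1 was the higher in 31 cells (62%, 47.2% to 75.3%) and Hdac2 in 19 (38%, 24.7% to 52.8%). The balance depended on the cells counted, with Hdac2 the higher in 22.7% of the 22 cells in which the pair differed by at least 2-fold and in 30.6% of the 36 cells without first title number 2, against 44.7% of the 38 cells without number 4. Over the first title numbers the share with Hdac1 higher ran from 42.9% to 83.3%. The rho between the pair was −0.00 over 50 cells. Hdac3, the enzyme of the NCoR complex, had a median of 59.5 TPM and was above TPM 1 in 42 cells, and the X-linked Hdac8, a cohesin deacetylase, was above TPM 1 in 20, with a median of 36.1 TPM where above 1.

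The class IIa deacetylases, which shuttle between nucleus and cytoplasm, were led by Hdac7, known for its role in endothelial integrity. Hdac7 was above TPM 1 in 49 cells, with a median of 40.7 TPM and a highest value of 234 TPM. It was highest of its class in 38 of 49 cells (77.6%, 63.4% to 88.2%), Hdac4 in 6 and Hdac5 in 5. Hdac4 and Hdac5 were nonetheless above TPM 1 in 34 and 26 cells. Hdac9 was listed at 0 in 50 of 50 cells, for which the exact interval of the share reaches 7.11% and the simpler limit of 3 counts of 50 gives 6%. Both cover counting error over cells only and take no account of the unknown depth. Of class IIb, the cytoplasmic tubulin deacetylase Hdac6 was above TPM 1 in 12 cells and Hdac10, a polyamine deacetylase, in 17, with both in 5 and neither in 26. Where above TPM 1 their medians were 29.99 and 27.9 TPM, above the value of 19.9 TPM at the midpoint of the list.

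**Figure D3:**
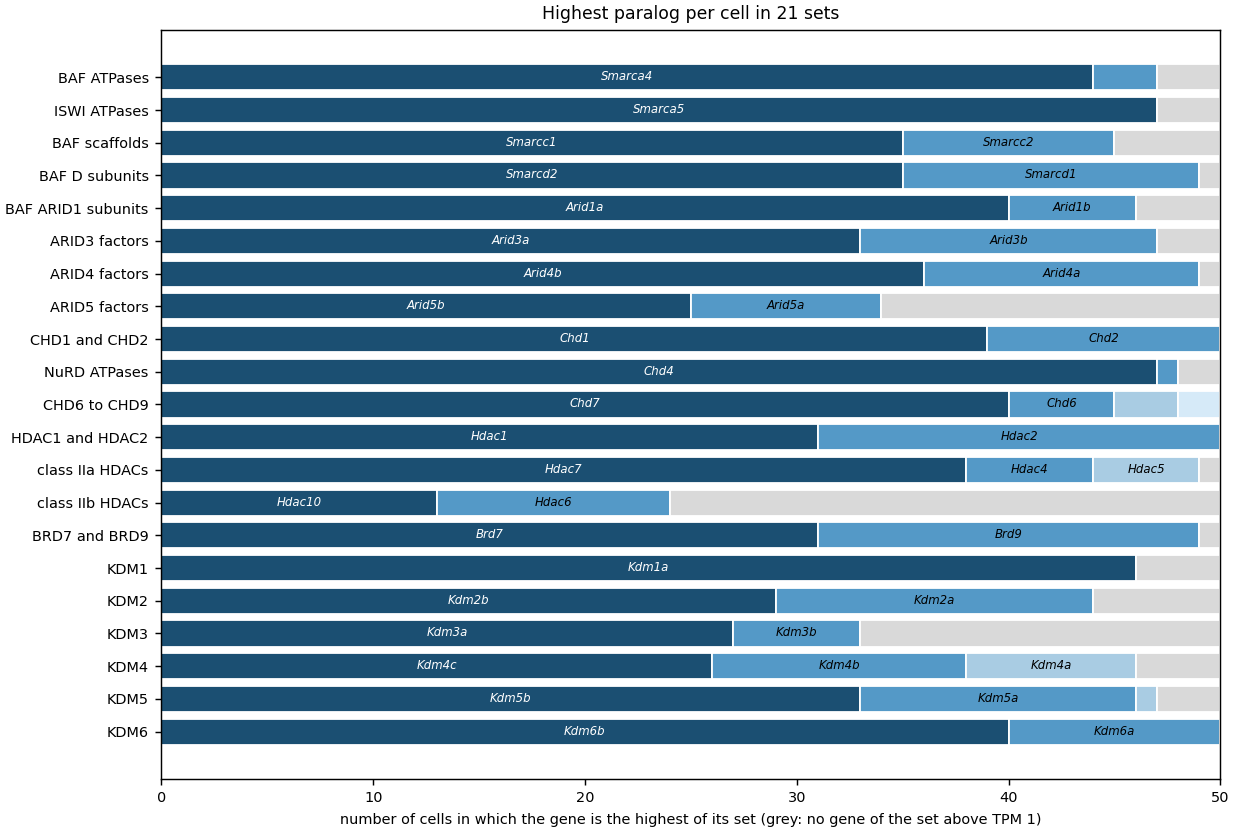
Number of the 50 cells (x axis) in which each paralog had the highest TPM of its set, for 21 sets (y axis), with cells in which no gene of the set was above TPM 1 in grey. Smarca5 is the only coloured bar of its set at 47 cells and Kdm1a at 46, and the HDAC1 and HDAC2 pair is split into 31 and 19.

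The BET proteins bind acetylated histones and bring elongation factors to promoters. Brd2 had a median of 37.7 TPM and a highest value of 200.2 TPM, and was above TPM 1 in 43 cells. Brd3 had a median of 25.4 TPM and a highest value of 107 TPM, and was above TPM 1 in 48. Brd2 overlaps 360 exon bases of H2-DMa on the opposite strand. Brd1 and Brd8, subunits of acetyltransferase complexes, were above TPM 1 in 40 and 36 cells.

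The demethylase sets ranged from 1 with the same highest paralog in every cell to mixed sets. Kdm1a (LSD1), which removes methyl groups with CoREST and is recruited by GFI1 proteins when endothelial genes are silenced, had a median of 39.8 TPM and a highest value of 210 TPM, and was the higher of the KDM1 pair in all 46 cells with either (100%, 92.3% to 100%). Kdm1b (LSD2) was above TPM 1 in 9 cells and at most 9.93 TPM, with 505 of its exon bases shared with Dek on the opposite strand. Kdm5b was highest of the KDM5 enzymes, which act on the active promoter mark, in 33 of 47 cells (70.2%, 55.1% to 82.7%) at a median of 34.7 TPM. Kdm5a was highest in 13 of them, and the X-linked Kdm5c in 1.

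Kdm6b (JMJD3) and the X-linked Kdm6a (UTX) remove the Polycomb mark. Kdm6b was above TPM 1 in every cell, from 1.12 TPM through a median of 22.1 TPM to 171 TPM. Kdm6a had a median of 1.1 TPM, a highest value of 50.1 TPM and a value above TPM 1 in 26 cells. Although the ranges overlapped, Kdm6b was the higher in 40 of 50 cells (80%, 66.3% to 90.0%).

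In the remaining demethylase sets, Kdm3a was the higher of the KDM3 pair, which act on a repressive mark, in 27 of 33 cells (81.8%). It had a median of 7.99 TPM. Its paralog Kdm3b had a median of 0.18 TPM and was above TPM 1 in 19 cells. Kdm2b, which also brings a Polycomb complex to unmethylated CpG islands, was the higher of the KDM2 pair in 29 of 44 cells (65.9%), and Kdm2a reached 308 TPM in a cell. Kdm4c was highest of the KDM4 genes, which remove repressive methyl marks, in 26 of 46 cells (56.5%), Kdm4b in 12 and Kdm4a in 8. Across all 37 paralog pairs the rho over cells had a median of 0.09 and ran from −0.21 for Smarcd1 and Smarcd2 to 0.55 for Brd2 and Brd3. The median over all 1891 pairs of the 62 varying genes was also 0.09. No paralog pair was at or below −0.3, 3 were at or above 0.3 (Brd2 with Brd3, Hdac4 with Hdac5, and Kdm5a with Kdm5c), and 9 were below 0. With the number of genes per cell held fixed, Kdm5a with Kdm5c was at 0.297. How many other gene pairs pass these limits was not counted.

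Partner genes outside the name rule were counted in the same way, beside the 53.2% of all rows above TPM 1 in at least 50% of cells. Of 9 BAF partners with a row, 7 passed TPM 1 in at least 50% of cells, including the actin-like subunit Actl6a in 44 cells at a median of 123 TPM and the PBAF subunit Pbrm1 in 48 cells at 31.4 TPM. Of 9 NuRD partners 8 passed the same level, led by the histone chaperone Rbbp7 in 50 cells at 304 TPM. All 10 NCoR and SIN3 partners, all 5 ISWI partners and all 3 genes of P-TEFb, a kinase of transcription elongation, did so as well. Sin3b was above TPM 1 in 50 cells at a median of 504 TPM. Of 6 CoREST and GFI1 partners 3 did, which is near the 53.2% of all rows. Rcor1 was above TPM 1 in 42 cells, Hmg20b in 47 and Rcor2 in 31, while Gfi1 was above TPM 1 in 17 cells, where it reached 161 TPM, and Gfi1b in 1.

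The last question was how the genes related to Runx1, the induced factor. Runx1 (chromosome 16, 92601466 to 92826149) ran from 0.16 TPM through a median of 132 TPM to 913 TPM and was above TPM 1 in 43 cells. Its TPM does not separate cassette from endogenous transcripts, and the rho between Runx1 and the genes above TPM 1 per cell was 0.28. Spearman's rho with Runx1 was taken over the 50 cells for every row that was not constant, along with a partial rho that holds the number of genes per cell fixed.

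Over the 62 genes with varying values the median rho was 0.13, compared with 0.06 over all rows, and the median partial rho was 0.06 compared with 0.01. The median rho fell to 0.06 without first title number 4 (0.02 over all rows) and to 0.06 without the 7 cells under 5000 genes (0.02 over all rows). A total of 47 had a rho above 0 (75.8%, against 66% of rows). A rho of 0.3 or more was found for 6 genes (9.68%), against 5.71% of rows, and −0.3 or less for 0 genes, against 1.06% of rows. With the partial rho 3 of the 62 genes were at 0.3 or more (4.84%), as were 356 of 11363 rows. At −0.3 or less were 0 of the 62 genes and 275 of 11363 rows. Within each of the 4 first title numbers, 11 genes (17.7%) had a rho above 0 every time, against 10.9% of rows. The 4 median rho values within the first title numbers were 0.15, −0.00, 0.16 and 0.23, beside 0.03, −0.03, 0.09 and 0.19 over all rows.

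**Figure D4:**
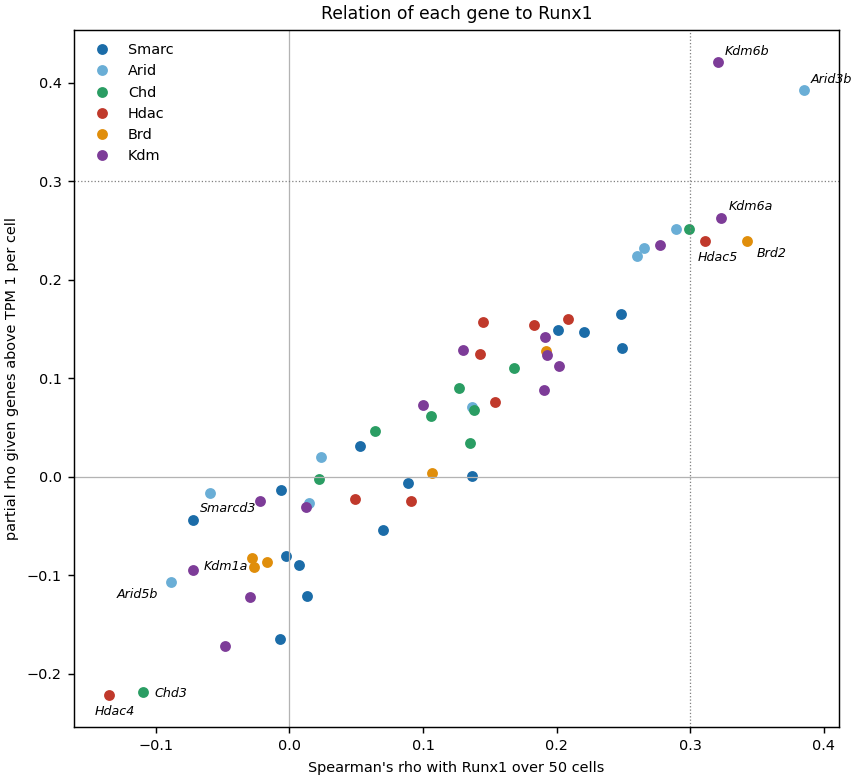
Spearman's rho with Runx1 (x axis) and partial rho given the number of genes above TPM 1 per cell (y axis) for 61 genes over 50 cells, coloured by family; dotted lines mark 0.3. Arid3b and Kdm6b are past 0.3 on both axes.

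Arid3b had a rho of 0.38 with Runx1 and a partial rho of 0.39, and its rho ran from 0.18 to 0.51 within the first title numbers. Brd2 had a rho of 0.34 and a partial rho of 0.24 and ran from −0.07 to 0.71 within them. Its paralog Brd3 had a rho of 0.11. The KDM6 demethylases Kdm6a and Kdm6b were both at 0.32. The rho of Kdm6b with the number of genes per cell was −0.25, while the median over the list was 0.23 and 4 genes were below 0. For Kdm6b the partial rho with Runx1 was 0.42 and the rho within first title numbers 0.12 to 0.64, while for Kdm6a the partial rho was 0.26. Hdac5 was the last gene at or above 0.3 with 0.31, and Chd7, just under that limit at 0.30, had a positive rho within each first title number. Without the 7 cells under 5000 genes, Arid3b had a rho of 0.37 and Kdm6b of 0.32, while Kdm6a was at 0.23, Brd2 at 0.21, Chd7 at 0.19 and Hdac5 at 0.18. Omitting 1 first title number at a time left Arid3b between 0.35 and 0.44 and Kdm6b between 0.24 and 0.43, with the lowest Kdm6b value without number 1. The same range was 0.20 to 0.43 for Brd2, 0.19 to 0.38 for Kdm6a and 0.26 to 0.34 for Hdac5. For Chd7 it was 0.26 to 0.39 and for Brd3 −0.10 to 0.31. Without the 2 cells farthest from the median Runx1 level, Kdm6b was at 0.28 and Arid3b at 0.45.

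The lowest values were −0.13 for Hdac4, −0.11 for Chd3, −0.09 for Arid5b, and −0.07 for both Kdm1a and Smarcd3. All lie closer to 0 than the limit of −0.3. The BAF ATPase Smarca4 had a rho of 0.01 and the ISWI ATPase Smarca5 of −0.01. The count of genes at or above 0.3 depended on the cells used. It was 16 (25.8%) without first title number 2, the number with 13 of the 21 Coro1a cells, where 11.3% of rows were past the limit, 10 (16.1%) without number 1, with 10.5% of rows, and 3 (4.84%) without the 7 cells under 5000 genes, with 4.57% of rows.

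**Figure D5:**
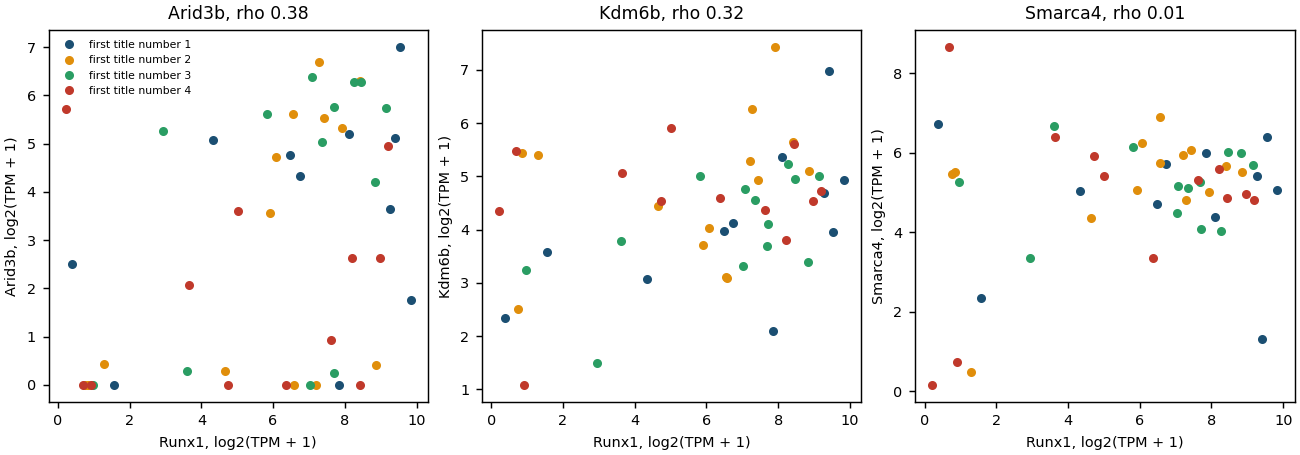
Levels of Arid3b, Kdm6b and Smarca4 (y axes) against Runx1 (x axes), all on the log2(TPM + 1) scale, with 1 point per cell coloured by first title number. Arid3b has a rho of 0.38 with Runx1 and Kdm6b of 0.32, and Smarca4, with a rho of 0.01, is shown beside them.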

How the data were processed

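The deposited values are TPM per gene for 50 single cells, as estimated by the authors from cDNA amplified with a whole-transcriptome kit. The submitters' processing notes name bcl2fastq, HISAT2 2.1.0, SAMtools 0.1.19, StringTie 1.3.4 and the mm10 genome. The series text and the methods name different sequencers. No molecular identifiers are named, and the rule that selected the 11879 rows is not stated. Column sums ran from 942975 to 970894 TPM.

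All 63 members were found by symbol and annotated with GENCODE M21 (GRCm38). The members, paralog sets, partner lists and tests were chosen with earlier results of these data known. Members are described by paralog set, with a role given for most, and for Runx1 the 5 highest and 5 lowest rho are named, except that values of 1 gene are not reported here, although counts over the list include it. A value counted as expressed at TPM above 1, and means of log2 values used a pseudocount of 1. Rank correlations were computed for all rows with Python 3.11.15, pandas 2.3.3 and scipy 1.17.1, and the code was tested on simulated data. Alternatives were other levels, a 2-fold margin, rescaling, and leaving out cells.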

Additional observations from a re-analysis of the deposited data

How the results depend on the processing

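Of 98 alternative values over 10 results, 85 stayed within the limits set for them and 13 did not. The limits were wide. For the median rho with Runx1 of 0.13 they were 0.03 and 0.23, so falls to 0.06 counted as within them. All alternatives were drawn from the same 50 cells, so the tally does not measure how well the results would repeat in other cells. The median share of cells was 84% when every value above 0 counted and 48% at TPM above 10. At TPM above 10, 29 genes passed in at least 50% of cells, as did 42% of all rows, and the median cell had 32.5 genes. With a 2-fold margin, Hdac2 was higher in 22.7% of 22 cells and Smarca4 in 100% of 34. All 6 BAF roles were filled in 92% of cells at TPM above 0, 62% above 5 and 38% above 10. The genes with a rho of 0.3 or more with Runx1 numbered 10 without first title number 1, 16 without number 2, 3 without cells under 5000 genes and 3 as a partial rho; the cause was not tested. Of the 63 single shares, 17 lay above their exact interval when every value above 0 counted, while 18 lay below it at TPM above 5 and 35 at TPM above 10. Unknown depth per cell limits every share and every value listed at 0. No paired analysis was possible because all cells belong to a single group.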

Other observations

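Pairs of these genes were set side by side over the 50 cells, with the pairs named after their values were seen. Over 1891 pairs of 62 genes the median rho was 0.09, and 0.04 as a partial rho given the number of genes per cell. Against all other rows of the table the same genes had medians of 0.05 and 0.01. The 12 genes of the BAF roles had a median rho of 0.03 among themselves, beside 0.05 with other rows. Apart from Smarca5 and its pseudogene row, the highest values were 0.61 for Hdac10 with Smarca4, 0.55 for Brd2 with Brd3, 0.54 both for Hdac4 with Smarca4 and for Arid3b with Kdm4b. The lowest was −0.43 for Arid1a with Brd7.

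Enzymes that place histone marks lie outside the name rule. Of 10 histone methyltransferases with a row, 5 exceeded TPM 1 in 50% of cells or more, as did 53.2% of all rows, with a range from Setd1b in 15 cells to Nsd1 in 45. Of 9 acetyltransferases looked up, 5 had a row, and none was found for Kat6a, Kat6b, Kat7 and Kat8. Of the 5 with a row, 4 passed that level. Kat5 was above TPM 1 in 39 cells, Ep300 in 33, Kat2a in 33 and Crebbp in 32, and Kat2b was above TPM 1 in 14. Over 57 partner genes with a row, 3 had a rho with Runx1 of 0.3 or more (5.71% of all rows did) and 1 had −0.3 or less (1.06% of all rows). They were the CoREST subunit Rcor2 at 0.37, the methyltransferase Ehmt2 at 0.36, the NCoR subunit Tbl1xr1 at 0.31 and the BAF subunit Bcl7b at −0.35. Their partial rho given the number of genes per cell was 0.32, 0.27, 0.22 and −0.44 in that order. Within the first title numbers Tbl1xr1 ran from −0.13 to 0.73.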
